A study of Emberiza bruniceps with 4 samples.

Results

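Aromatase, the enzyme that turns androgens into oestrogens, was measured in a migratory songbird, the red-headed bunting (Emberiza bruniceps), together with 3 other enzymes that are listed with steroid synthesis. The other members are cholesterol side-chain cleavage enzyme (CYP11A1), peroxisomal multifunctional enzyme type 2 (HSD17B4) and very-long-chain 3-oxoacyl-CoA reductase (HSD17B12). They were picked by exact protein name: each assembled contig kept its best match among collared flycatcher proteins (e-value of at most 1e-05), and the estimated counts of all contigs with 1 name were added up. The 4 enzymes are 4 of 11943 names with counts, and all 4 passed the filter of a mean of at least 1 CPM (counts brought to an equal library size) that left 10556 names for comparison.

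The RNA came from the hypothalamus of birds caught in the wild, and the groups were castrated in spring, castrated in autumn, gonad-intact in spring and gonad-intact in autumn. Each group is 1 library, and neither the number of birds behind it nor their sex or age is in the labels. A ratio between 2 libraries therefore has no replicate check. Where 2 values are given for castrated or for intact birds, the spring library's stands first and the autumn library's second. The bracketed 95% intervals cover counting error only.

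In vertebrates, steroid synthesis starts when cholesterol is carried into the mitochondrion, where CYP11A1 cuts off its side chain to give pregnenolone. Further enzymes turn pregnenolone into progestins and androgens, and aromatase (CYP19A1) makes the last step to oestradiol. Songbirds express aromatase in the hypothalamus and preoptic area and also widely in the telencephalon, and in quail the preoptic enzyme depends on circulating androgen. HSD17B4 and HSD17B12 bear the family name of 17-beta-hydroxysteroid dehydrogenases, which interconvert weak and strong sex steroids, but HSD17B4 is best known for the peroxisomal breakdown of very long fatty acids and bile acid precursors, and HSD17B12 for the elongation of very long fatty acids in the endoplasmic reticulum.

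Depth was similar in 3 libraries and higher in the autumn castrated one: the totals lay between 16840270 and 26213011 estimated counts, and between 39.1% and 41.7% of them fell on matched contigs. Levels are given as CPM scaled by TMM, or as TPM, a share of transcripts corrected for contig length, where 2 genes are compared. TMM gives each library a scaling factor, on the assumption that most genes do not differ between libraries. Ratios are on the log2 scale after 0.5 CPM is added, and 2-fold (a log2 ratio of 1 in size) is the size at which a gene is called. The median over all names lay between -0.01 and 0.02 in the 4 pairs of libraries.

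The 2 fatty-acid enzymes were abundant and aromatase was rare. In the order spring castrated, autumn castrated, spring intact, autumn intact, HSD17B12 stood at 64.7, 48.3, 48.7 and 42.3 TPM, and HSD17B4 at 46.0, 60.01, 29.5 and 25.1 TPM. Aromatase stood at 0.381, 0.320, 2.04 and 1.60 TPM in the same order of libraries. By TPM, aromatase ranked 10015 and 10242 of 10556 names in castrated birds and 8076 and 8608 in intact birds. Such a rank depends on contig length as well as on counts, and aromatase lies on 1 long contig. In the spring intact library, for example, the elongation gene ELOVL6 had 8.47 CPM but 34.6 TPM, and aromatase had 33.6 CPM but 2.04 TPM. HSD17B12 ranked between 549 and 863 in every library. CYP11A1 was listed at 14.1, 5.98, 2.26 and 9.59 TPM, a value summed over the short contigs described next. In the spring castrated library, 7.19 of the 14.1 TPM came from 1 contig of 253 bases that had 10 counts. The TPM of CYP11A1 is therefore not set against that of the other enzymes.

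**Figure D1:**
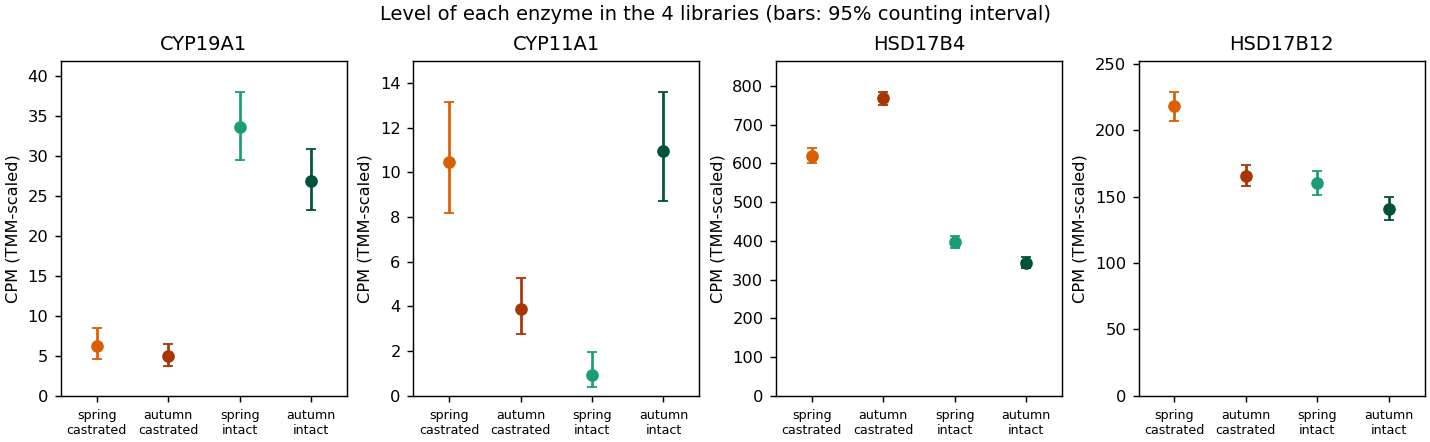
Level of each enzyme in the 4 libraries, in TMM-scaled CPM (each panel has its own linear axis from 0); points are single libraries and bars the 95% counting interval. Aromatase (CYP19A1) lies at 6.29 and 4.96 CPM in the castrated libraries and at 33.6 and 26.9 CPM in the intact ones, while CYP11A1 is lowest in the spring intact library.

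The counts under the name CYP11A1 were few and followed neither gonadal state nor season. They numbered 73 in the spring castrated, 39 in the autumn castrated, 7 in the spring intact and 81 in the autumn intact library, or 10.4, 3.87, 0.956 and 10.9 CPM. The spring intact library alone was low, the autumn castrated one lay between, and the counting intervals of the spring castrated (8.18 to 13.1 CPM) and autumn intact (8.70 to 13.6 CPM) libraries overlapped. In spring the castrated library was higher by a log2 ratio of 2.91 (2.33 to 4.81), and in autumn it was lower, at -1.39 (-2.09 to -0.93). The spring library was higher among castrated birds, at 1.32 (0.85 to 2.03), and lower among intact birds, at -2.97 (-4.88 to -2.41).

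The sequence behind these counts is short and scattered, unlike that of the other enzymes. The flycatcher protein matched is a low-quality, partial model, and 27 contigs matched it, of which 21 had counts. No alignment exceeded 79 residues, identity ran between 58.6% and 100%, and the contigs were between 253 and 1061 bases long. The alignment took up 18.7% of the longest contig. Whether these contigs are CYP11A1 transcripts was not tested, since no sequence was at hand. The contigs belong to 4 assembly components, and 2 of the 21 contigs had counts in all 4 libraries. The contig with the most counts held 16.1% of them, so the summed level does not rest on 1 contig, and estimated counts can move among such similar contigs.

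The component with the most counts had 39.8 and 14.1 estimated counts in castrated birds, and 3.14 and 50.8 in intact birds. The next one had 18 and 11 in castrated birds, and 1 and 26.5 in intact birds, with the same order of libraries. The remaining components had at most 10 counts in any library, and neither was highest in the autumn intact one. Without the largest component the log2 ratios kept their directions, at 2.32 and -0.63 for castrated over intact in spring and autumn and at 0.81 and -2.14 for spring over autumn in castrated and intact birds, of which the autumn and the castrated ratio lay short of 2-fold.

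**Figure D2:**
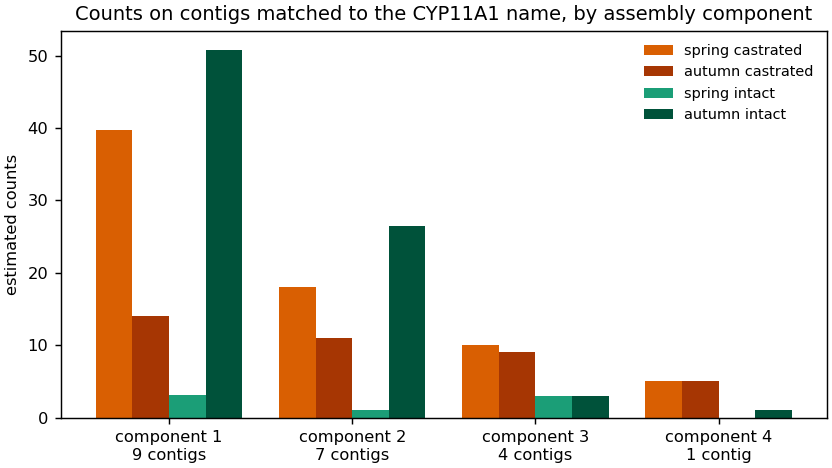
Estimated counts on the contigs that matched the CYP11A1 name, grouped by the component of the assembly they belong to (only contigs with counts; bars from 0, 1 bar a library). The 2 largest components have most of their counts in the autumn intact and spring castrated libraries, and the 2 smaller ones hold at most 10 counts in any library.

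Aromatase was lower in the castrated library in both seasons. Its counts were 44 and 50 in castrated birds, against 246 and 199 in intact birds. Both castrated libraries lay below both intact ones, and their counting intervals did not overlap: the highest castrated bound was 8.45 CPM and the lowest intact bound 23.3 CPM. The castration ratios, -2.33 in each season (-2.91 to -1.95 in spring and -2.92 to -1.98 in autumn), correspond to a level 5.02-fold lower in each. The difference between the seasons in this ratio, taken as spring minus autumn, was -0.00 on the log2 scale, with an interval of -0.66 to 0.70, so a change of up to about that size could not be seen at this depth. Of all 10556 names, 338 had a lower castration ratio than aromatase in spring and 329 in autumn.

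Between the seasons, the aromatase ratios lay short of 2-fold. The spring library was higher by a log2 ratio of 0.31 (-0.28 to 0.96) in castrated and 0.32 (0.05 to 0.60) in intact birds. The first of these includes no difference and reaches nearly to 2-fold, and the second lies just beyond counting error and far short of 2-fold. Of all names, 77.8% had a lower season ratio than aromatase in castrated and 80.0% in intact birds. Ordered by level, spring intact came first, then autumn intact, then spring castrated and last autumn castrated, and the last pair could not be told apart by counting.

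All aromatase counts came from 1 contig of 4940 bases, aligned to the flycatcher enzyme over 509 residues at 96.7% identity. The alignment took up 30.9% of the contig. The value is thus free of the sharing of reads among contigs of the same name that CYP11A1 has, but it holds no second contig to set it against.

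Markers of brain regions also differed between castrated and intact libraries, and most telencephalon markers lay on the same side as aromatase. The 10 telencephalon markers summed to 351 and 369 CPM in castrated birds, against 1798 and 2099 CPM in intact birds, with 7 of 10 at least 2-fold lower in both seasons and 1, NEUROD6, higher. ADORA2A, which hardly differed (ratios of -0.15 and -0.04), made up 280 and 302 CPM of the castrated sums. The sums therefore understate the fall of most of these markers, whose median ratio was -4.89 in spring and -4.85 in autumn. None of the 10 was at 0 in any library. In the opposite direction, the 8 midbrain and hindbrain markers matched, of 10, summed to 568 and 369 CPM in castrated and 11.1 and 11.6 CPM in intact birds, with 7 at least 2-fold higher in both seasons. The 8 pituitary markers matched, of 10, summed to 894 and 509 CPM in castrated and 7.51 and 0.541 CPM in intact birds, with 6 at least 2-fold higher and all 8 above 0 in both seasons. HOXA3, EN2, TSHB and PITX1 had 0 counts in both intact libraries. The hypothalamus markers, 10 of 12 matched, summed to 97.5 and 61.8 CPM in the castrated and 85.0 and 76.0 CPM in the intact libraries. Single markers went both ways beneath these sums. In spring 2 of the 9 tested were at least 2-fold higher in castrated birds and 3 lower, beside 8.67% and 14.5% of all names. In autumn 2 were higher and 2 lower, beside 12.3% and 15.2%. SIX6 had 0 counts in the spring castrated and NR5A1 in the autumn intact library. Of the 9 hypothalamus markers tested, 1 was at least 2-fold higher in both castrated libraries and 1 lower, beside 4.54% and 9.62% of all names. The lower one was NKX2-1, with 16 and 13 counts in castrated birds and 163 and 132 in intact birds. The higher one was NR5A1, with 113 and 33 counts in castrated birds and 2 and 0 in intact birds. An effect of gonadal state and a different piece of tissue cannot be told apart with 1 library per group, and this holds for every castration ratio given here. Season and the piece of tissue cannot be told apart either, which limits the season ratios. The choroid plexus markers, for example, summed to 239 CPM in the spring intact and 7708 CPM in the autumn intact library. Nor can fewer cells that make an enzyme be told apart from less of its RNA in each cell.

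Of the glial lists, the 2 astrocyte and radial glia markers matched (VIM and SLC1A3, of 8) summed to 531 and 588 CPM in the castrated and 721 and 745 CPM in the intact libraries. The 3 oligodendrocyte markers matched, of 6, were all at least 2-fold higher in both castrated libraries, as were 4.54% of all names. They summed to 17491 and 13998 CPM there, against 7590 and 4370 CPM in the intact ones. The 5 neuron markers matched summed to 7243 and 5756 CPM in the castrated and 7028 and 5919 CPM in the intact libraries. These sums hide opposite directions among the markers tested. NEFM (castration ratios of 3.09 and 2.46) and NEFL (1.67 and 1.03) were higher in castrated birds. SYT1 (-1.09 and -0.72) and MAP2 (-0.73 and -0.71) were lower. The 2 choroid plexus markers matched summed to 809 and 1759 CPM in the castrated and 239 and 7708 CPM in the intact libraries, lowest in the spring intact library, as CYP11A1 was, while in castrated birds they were lower in spring and CYP11A1 was higher. The part of these tissues in the enzymes' levels was not tested.

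**Figure D3:**
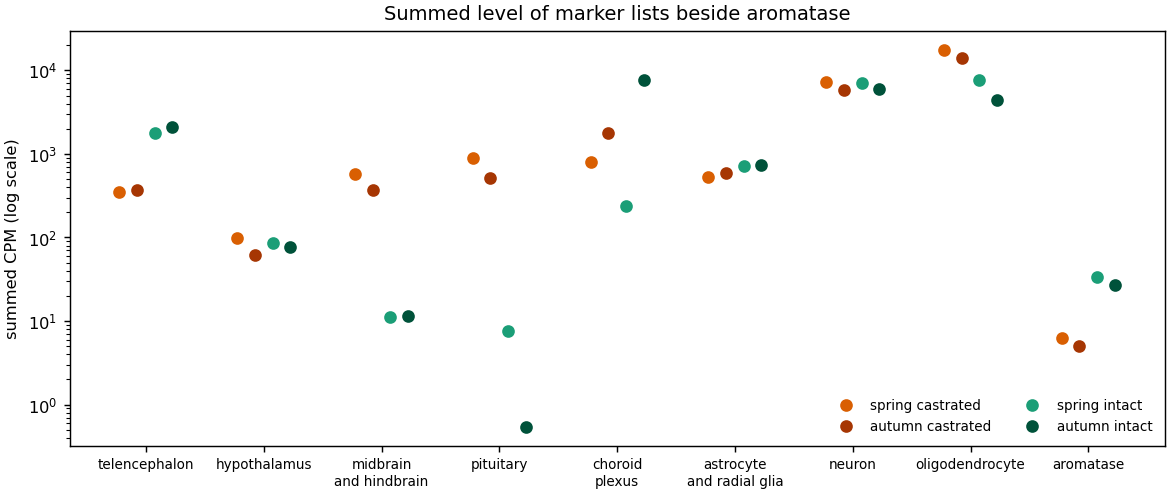
Summed level of each marker list (CPM, log axis) in the 4 libraries, with aromatase at the right; each point is 1 library. Telencephalon markers and aromatase are lower in both castrated libraries, and midbrain, hindbrain, pituitary and oligodendrocyte markers are higher there. ADORA2A alone holds 280 CPM of the spring castrated and 302 CPM of the autumn castrated telencephalon sum.

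HSD17B4 was higher in the castrated library in both seasons, and more so in autumn. It had 4336 and 7735 counts in castrated birds, against 2906 and 2545 in intact birds, or 620 and 768 CPM against 397 and 344 CPM. Ordered by level, autumn castrated came first, then spring castrated, spring intact and autumn intact, and no counting intervals overlapped. The castration ratio was 0.64 (0.58 to 0.71) in spring and 1.16 (1.09 to 1.22) in autumn, a level 2.23-fold that of the intact library. The autumn ratio is just past 2-fold and was 0.99 when library totals replaced TMM. The castration ratio differed between seasons by -0.51 (-0.61 to -0.42, spring minus autumn) beyond counting error. With library totals it was 0.68 in spring and 0.99 in autumn, nearer to each other, so the size of this difference depends on the scaling. The spring library was lower among castrated birds (-0.31, -0.36 to -0.25) and higher among intact birds (0.21, 0.13 to 0.28). Its counts rest on 1 contig of 4079 bases, aligned over 718 residues at 95.8% identity. The oligodendrocyte markers were higher in the same castrated libraries, and their part in HSD17B4 was not tested.

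HSD17B12 had the smallest castration ratios of the 4 enzymes. It had 1523 and 1669 counts in castrated birds, against 1172 and 1042 in intact birds, or 218 and 166 CPM against 160 and 141 CPM. The spring castrated library was the highest and the autumn intact one the lowest, while the autumn castrated (158 to 174 CPM) and spring intact (151 to 170 CPM) intervals overlapped. The castration ratio was 0.44 (0.33 to 0.55) in spring and 0.23 (0.12 to 0.35) in autumn, and the seasons differed in it by 0.21 (0.05 to 0.37). With library totals it was 0.48 in spring and 0.063 in autumn, farther apart, so this difference too depends on the scaling. The spring library was higher by 0.39 (0.29 to 0.50) among castrated and 0.18 (0.06 to 0.31) among intact birds. Of 3 contigs in 2 components, 1 of 1263 bases, aligned over 261 residues at 94.6% identity, held 99.5% of the counts.

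Set against all names, the calls were these. In spring, 2 of the 4 enzymes differed 2-fold or more by castration (CYP11A1 higher, aromatase lower), where 23.2% of all names did, 8.67% higher and 14.5% lower. In autumn 3 of 4 did (HSD17B4 higher, CYP11A1 and aromatase lower), against 27.6% of all names, 12.3% higher and 15.2% lower. Of the 4, aromatase alone was at least 2-fold lower in both seasons, as were 9.62% of all names, and 0 were higher in both, as 4.54% were. Between spring and autumn, CYP11A1 was the 1 enzyme called in castrated birds (higher), where 7.89% of all names were, 2.48% higher and 5.41% lower. It was also the 1 called in intact birds (lower), where 7.03% of all names were, 2.55% higher and 4.48% lower. With 4 enzymes, such counts cannot be read as a property of the group.

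**Figure D4:**
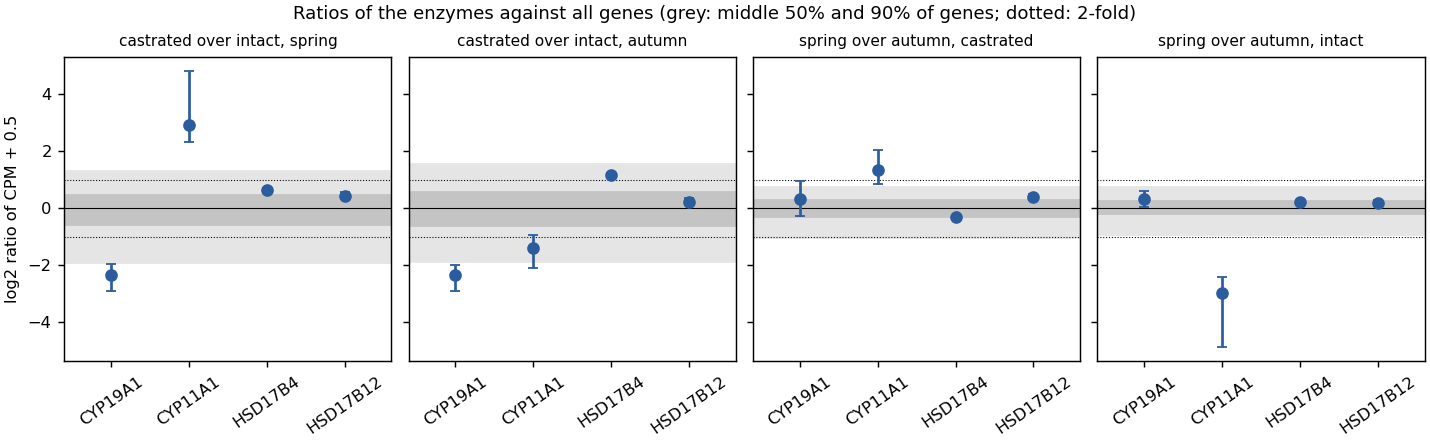
Log2 ratio of each enzyme in the 4 pairs of libraries, with its 95% counting interval; the grey bands hold the middle 50% and 90% of all 10556 names, and dotted lines mark 2-fold. Aromatase lies below the 90% band in both castration pairs and within it in both season pairs, and CYP11A1 lies outside it in 3 of the 4 pairs.

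An additive model of season and gonadal state over the 4 libraries, which has 1 residual degree of freedom, was fitted to all names. It takes any interaction of season and gonadal state as its error. Its p-values therefore do not measure the spread between birds or between libraries of the same group. The pairs counted beside them come from the same 4 libraries. In edgeR's quasi-likelihood test with Benjamini-Hochberg adjustment, aromatase was lower in castrated birds (log2 fold change -2.42, adjusted p = 0.0065, lower in 2 of 2 pairs), as were 14.3% of names at an adjusted p under 0.05. HSD17B4 was higher (0.90, adjusted p = 0.0217, higher in 2 of 2 pairs), as were 8.12%. HSD17B12 (0.34, adjusted p = 0.184) and CYP11A1 (0.67, adjusted p = 0.721) did not pass. For season, edgeR called 0 of 10556 names after adjustment and 530 at an unadjusted p under 0.05. These 530 are about as many as that threshold passes when no name differs. The 4 enzymes had adjusted p-values for season between 0.876 and 0.979 in the same test. The opposite castration ratios of CYP11A1 enter this model as error, and the model does not separate gonadal state or season from the piece of tissue.

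STAR and HSD3B, which act before aromatase in the route, were hardly detected under the protein names matched. Of 21 genes listed for steroid synthesis and transfer besides the 4 enzymes, 18 matched a name and 14 passed the filter. STAR, the protein that delivers cholesterol to CYP11A1, had 1 and 1 counts in castrated birds and 0 and 0 in intact birds. HSD3B, which makes progesterone from pregnenolone, had 2 and 5 counts in the castrated and 4 and 5 in the intact libraries. It was matched under 1 name that ends in "-like", and counts under any other name were not added. TSPO, a cholesterol-binding protein of the outer mitochondrial membrane, had 2 and 2 in the castrated and 2 and 6 in the intact ones. Differences in STAR, HSD3B and TSPO are not detectable at this depth, where even a gene at 0 counts may have a level of up to 3 counts, which is between 0.298 and 0.429 CPM by library. These 3 were named after their values were seen.

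The electron carriers that CYP11A1 and aromatase need had between 203 and 673 counts in each library. FDX1 (ferredoxin, for mitochondrial P450 enzymes) had castration ratios of 0.01 in spring and 0.05 in autumn, and its reductase FDXR 0.46 and 0.92. POR, the reductase that serves aromatase, was at 0.38 and 0.15. FDX1 and POR were named after their values were seen. None of the 3 reached 2-fold.

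Castration in both seasons came with a level at least 2-fold higher for 2 of the 14 tested synthesis and transfer genes and lower for 1, where 4.54% of all names were higher and 9.62% lower. The list's median ratio was 0.33 in spring and 0.26 in autumn, against 0.01 and -0.01 over all names. HSD17B7, which acts in cholesterol synthesis and on oestrone, measured 25.7 and 33.3 CPM in castrated birds against 12.6 and 15.8 CPM in intact birds, ratios of 1.01 (0.66 to 1.41) and 1.05 (0.76 to 1.39). These lie barely past 2-fold. In TPM it stood at 47.1 and 44.4 in castrated against 41.6 and 27.4 in intact birds, short of 2-fold in both seasons. HSD17B1, which makes oestradiol from oestrone in mammals, had 18 and 12 counts in the castrated against 3 and 2 in the intact libraries, ratios of 1.76 (0.87 to 5.06) and 1.13 (-0.03 to 5.34), of which the autumn interval includes no difference. STARD5, a cytosolic sterol-binding protein, was lower at 25.9 and 24.7 CPM in the castrated against 68.7 and 71.8 CPM in the intact libraries, ratios of -1.39 and -1.52. Its relative STARD4 lay at -0.66 and -1.03, and the channel VDAC1 at 0.70 and 0.94. With library totals in place of TMM, 1 rather than 2 of the 14 genes was at least 2-fold higher in autumn, and the autumn median was 0.09, since that scaling moves the median of all names by -0.16 in this pair and by 0.16 between the seasons in castrated birds. Between seasons, 0 of 14 were 2-fold apart in either pair, where 7.89% of all names were in castrated and 7.03% in intact birds.

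Of the genes listed for steroid conversion and inactivation, 17 of 24 matched and 13 were tested. Castrated birds had 2 of these (HSDL1 and HSDL2) at least 2-fold higher in both seasons and 1 (AKR1D1) lower, beside 4.54% and 9.62% of all names. AKR1D1, the 5-beta-reductase that in birds inactivates androgens in the brain, had 12 and 16 counts in the castrated against 60 and 65 in the intact libraries, ratios of -1.97 (-3.29 to -1.35) and -2.15 (-3.36 to -1.66). It thus lay on the same side as aromatase in both seasons. HSDL2, a peroxisomal protein of the hydroxysteroid dehydrogenase-like family, was higher at 171 and 171 CPM against 69.1 and 77.2 CPM, ratios of 1.30 and 1.14. HSDL1, whose matched protein name calls it inactive, had 47 and 91 counts in the castrated and 0 in each intact library. Against 3 counts in the intact library, it was at least 16.4-fold higher in spring and at least 22.3-fold higher in autumn. Whether kallisto's sharing of reads between alike contigs left HSDL1 at 0 was not tested. CYP46A1, the neuronal cholesterol 24-hydroxylase, lay at 0.69 and 0.52, CYP27A1, a sterol 27-hydroxylase, at -0.69 and -0.68, and HSD17B13, a lipid-droplet protein, at -0.98 and -0.81. The list's medians were 0.47 in spring and -0.18 in autumn, on either side of 0.

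Of the receptors and their partners, 16 of 20 were matched and tested. By castration, 0 differed 2-fold upwards and 1 downwards in both seasons (4.54% and 9.62% of all names did), and the median ratio was -0.45 in spring and -0.12 in autumn. The 1 was NCOR1, a corepressor of nuclear receptors, at 252 and 206 CPM in the castrated against 529 and 448 CPM in the intact libraries (-1.07 and -1.12). The mineralocorticoid receptor NR3C2 lay at -1.07 and -0.75, and GPER1, a membrane oestrogen receptor, at 0.71 and 0.80. The castration ratios of the progesterone receptor PGR were -1.02 and -0.86, and those of the oestrogen receptor ESR2 -0.82 and -0.87. In the season pairs, 0 of 16 were 2-fold higher or lower in both gonadal states, where 0.237% of all names were higher and 0.635% lower. In castrated birds 8 of 16 lay above 0 (median -0.04), as 49.8% of all names did, and in intact birds 13 of 16 did (median 0.43), as 53.6% of all names did. The progesterone receptor PGR was at 0.86 among castrated and 1.02 among intact birds, the oestrogen receptor ESR2 at 0.88 and 0.84, and the coactivator NCOA2 at -0.64 and -1.69.

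Of the transcription factors known to act on steroidogenic genes, 10 of 13 matched and 8 were tested, with castration medians of 0.24 and -0.41. NR5A1, steroidogenic factor 1, which switches on CYP11A1 in gonads and adrenals and is a marker of both the ventromedial hypothalamus and pituitary gonadotropes, had 113 and 33 counts in the castrated against 2 and 0 in the intact libraries. Its spring ratio was 4.43 (4.0 to 8.95), and in autumn it was at least 8.08-fold higher in the castrated library against 3 counts. NR5A1 and CYP11A1 were both higher in castrated birds in spring, and both higher in spring among castrated birds (2.14 and 1.32). In autumn CYP11A1 was lower in castrated birds. Among intact birds CYP11A1 was lower in spring (-2.97), where NR5A1 has too few counts to compare. NR5A2 had 10 and 12 counts in castrated and 6 and 23 in intact birds. Its castration ratios were 0.55 and -1.09, and its season ratios 0.19 among castrated and -1.45 among intact birds. The part of either factor in CYP11A1 was not tested. Pituitary markers, given above, were higher in the same libraries as NR5A1. Among castrated birds, 2 of the 8 pituitary markers were at least 2-fold higher in spring and 3 lower, beside 2.48% and 5.41% of all names. The higher ones were the hormone subunits CGA (3637 counts in spring and 328 in autumn) and FSHB (1035 and 6). The part of pituitary tissue in NR5A1 was not tested. CREB1, the cyclic AMP response factor, was lower at -2.94 (-4.54 to -2.38) and -0.93 (-1.53 to -0.47), on 9 counts in the spring castrated library. SREBF2, which controls cholesterol synthesis, lay at -0.82 and -0.73, and NR2F1, a nuclear receptor of developing neurons, at 0.17 and 0.12, of which the autumn ratio turned to -0.04 with library totals.

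Other genes of peroxisomal fatty acid breakdown lay mostly above 0. The 17 peroxisomal beta-oxidation genes matched and tested, of 21 listed, had medians of 0.31 in spring and 0.46 in autumn, and 11 of 17 lay above 0 and 1 below 0 in both seasons, where 38.4% and 38.3% of all names did. At 2-fold, 0 were called in both seasons in either direction, where 4.54% of all names were higher and 9.62% lower. EHHADH, the other bifunctional enzyme of the peroxisome, had ratios of 0.74 (0.18 to 1.44) and 1.60 (1.12 to 2.39), larger in autumn like HSD17B4. PHYH, which starts the breakdown of branched fatty acids, lay at 0.68 and 0.94, SCP2, the thiolase and sterol carrier, at 0.61 and 0.58, and catalase (CAT) at 0.67 and 0.60. AMACR, the racemase that prepares branched fatty acids for peroxisomal breakdown, lay at -0.64 and 0.15, the autumn value turning to -0.01 with library totals, and was lower in spring among castrated birds (-1.57).

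HSD17B12 carries out a reduction step of the cycle that lengthens very long fatty acids, and the other genes of fatty acid elongation went both ways. Of 16 genes listed, 12 matched and 11 were tested, with 0 at least 2-fold higher and 1 lower in both castrated libraries (4.54% and 9.62% of all names were) and median ratios of -0.03 in spring and -0.46 in autumn. The 1 was HACD1, the dehydratase of the next step, at 39.2 and 50.1 CPM in the castrated against 107 and 145 CPM in the intact libraries (-1.43 and -1.52). TECR, the reductase of the last step, had 24 and 18 counts in the castrated against 6 and 11 in the intact libraries, ratios of 1.58 (0.74 to 3.65) and 0.20 (-0.90 to 1.49). ELOVL5, an elongase, lay at 0.65 and 0.26, with season ratios of 0.60 among castrated and 0.20 among intact birds, beside 0.39 and 0.18 for HSD17B12. ACSL3, which activates fatty acids, lay at -0.90 and -0.67.

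**Figure D5:**
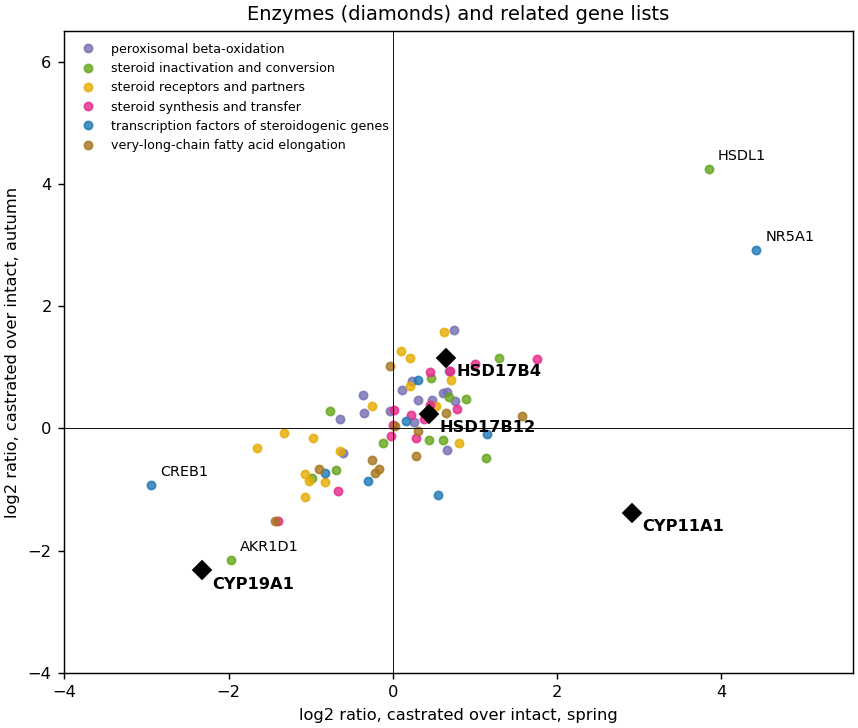
Castration ratio (log2, castrated over intact) in spring on the horizontal axis and in autumn on the vertical axis for the 4 enzymes (black diamonds) and the 79 tested genes of 6 related lists (colours; 1 point a gene). Aromatase and AKR1D1 lie at the lower left, HSD17B4 lies at the upper right nearer 0, CYP11A1 lies at the lower right, and HSDL1 and NR5A1, at 0 to 2 counts in intact birds, lie at the upper right edge.

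The names whose levels over the 4 libraries were most like each enzyme's were found among 8806 names with a mean of at least 5 CPM, by the root mean square difference of log2 CPM centred on its own mean. For aromatase they were transcription factor HIVEP3 (0.05), INO80 complex subunit D (0.06) and atrial natriuretic peptide receptor 2-like (0.06). HIVEP3 had 187 and 234 counts in castrated birds against 1068 and 820 in intact birds. HSD17B4 was nearest to fatty aldehyde dehydrogenase (0.02), an enzyme that oxidises long fatty aldehydes, with 1461 and 2623 counts in the castrated against 985 and 829 in the intact libraries, followed by tyrosine-protein phosphatase non-receptor type 23 (0.02) and LSm6 (0.03). HSD17B12 was nearest to semaphorin-4B (0.02), dolichyldiphosphatase 1 (0.02) and adenylosuccinate synthetase isozyme 1 (0.03). The nearest names to CYP11A1 were farther off, at 0.26 for WNT1-inducible-signaling pathway protein 3, 0.32 for ELL2 and 0.34 for cyclin-A2. With 4 libraries this likeness is a description only.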

How the data were processed

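The enzymes, the gene lists and the tests were chosen with earlier results of these data known. Per the submitters' processing notes, reads were handled with Trimmomatic and kallisto, both without a version; which assembler and which protein search tool were run is not given in the sources used here. Estimated counts per contig, not normalized, and TPM, a length-corrected share of transcripts, were deposited by the authors for every library. The authors also deposited the matches of contigs to flycatcher proteins, each with its bit score, e-value, percent identity and the part of the contig aligned in percent. A contig without counts is left out of a library's table and was set to 0.

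Best matches by bit score with an e-value of at most 1e-05 were kept, which left 50994 of the 507906 contigs with counts; estimated counts were summed per protein name and rounded, and names with a mean of at least 1 CPM were compared. Library size was the total on matched contigs, scaled by TMM (edgeR 4.0.16, R 4.3.3). Ratios were taken after adding 0.5 CPM. Intervals at 95% are exact binomial (Clopper-Pearson) and, for the difference between seasons, from the exact conditional odds ratio; both leave out the added CPM and may be too narrow, since no molecular identifiers are described and reads are then not independent. The script of the additive fit (season and gonadal state) was run on simulated counts with known changes, which checks the script and not the fit's assumption of no interaction.

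The text names the enzymes and up to 6 genes per list with the largest of the smaller castration or season ratios. It also gives the 3 most alike names per enzyme, or says where a gene was named after its values were seen. The marker genes NEUROD6, ADORA2A, HOXA3, EN2, TSHB, PITX1, SIX6, NKX2-1, NEFM, NEFL, SYT1, MAP2, CGA, FSHB, TTR and KCNJ13 were also named after that. Some genes the rule selects appear in counts only. Genes were paired with names by hand, and "-like" names for CYP21A2, HSD17B13, HSD11B1, SULT2B1 and NCOA1 were added after the files were read. Of 115 genes in 6 lists, 90 matched and 79 were tested. Alternatives were DESeq2 1.42.0 size factors, library totals, other filters, 0.1 or 2 CPM added, TPM, stricter matches, the top contig alone and, for CYP11A1 after the data were seen, contigs aligned over at least 60 residues and no largest component. No sequence is shown.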

Additional observations from a re-analysis of the deposited data

Results flagged for a closer look

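CYP11A1 was flagged because its ratios, each at least 2-fold in size, point in opposite directions. Castrated over intact was at 2.91 in spring and -1.39 in autumn. Spring over autumn was at 1.32 in castrated and -2.97 in intact birds. Counting error does not bridge the difference between the castration ratios, 4.30 (3.64 to 6.42, spring minus autumn), but with 1 library a group the difference between seasons was not tested against replicates. The 4 ratios share the same 4 libraries and are not separate observations. Whether the short contigs matched to this name are CYP11A1 transcripts was not tested. Opposite castration ratios are not particular to CYP11A1. Of all names, 38.4% lay above 0 and 38.3% below 0 in both seasons, and the rest did not keep 1 direction. The choroid plexus markers TTR (1.75 in spring and -2.12 in autumn) and KCNJ13 (1.80 and -3.29) also had opposite ratios past 2-fold.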

How the results depend on the processing

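No direction of the 4 enzymes' ratios was reversed under any alternative run, and aromatase, CYP11A1 and HSD17B4 kept the sides of 2-fold given in the report except as follows. With library totals HSD17B4 was at 0.99 (castrated over intact, autumn) and -0.14 (spring over autumn, castrated), and HSD17B12 at 0.063 and 0.56 in the same pairs; that scaling moves the median of all names by -0.16 and 0.16 there. With TPM, HSD17B4 was at 1.24 and -0.38 in those pairs, and aromatase at -1.53 in spring and -1.36 in autumn, where the 0.5 TPM added exceeds its level in both castrated libraries. CYP11A1, castrated over intact in spring, was at 2.07 with 2 CPM added, 1.88 with its top contig and 2.32 without its largest component. In autumn it was at -0.64 with TPM, -2.62 with its top contig and -0.63 without that component. Its spring over autumn ratio was 0.81 without that component in castrated birds, and in intact birds -2.13 with 2 CPM added, -1.87 with TPM and -2.14 without that component. The cause of the shifts in CYP11A1 was not tested.

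The number of enzymes called lay between 2 and 3 in autumn for castrated over intact and did not change in the other pairs. Of all names, 833 were 2-fold apart between seasons in castrated birds, against 527 when names under a mean of 5 CPM were left out, 510 with 2 CPM added and 1737 with top contigs alone; in intact birds these counts were 742, 424, 436 and 1681. Without replicates no library could be left out, since a group then has no library, and the additive fit has no residual degree of freedom left. No paired analysis was possible because each group has 1 library and the labels give no replicate number. Depth limits aromatase, with 44 and 50 counts in the castrated libraries, and CYP11A1, with 7 in the spring intact library.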
